A study of Mus musculus with 3 samples.

Results

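The genes described here are p53 and a set of genes that p53 switches on. They are Trp53 itself, Cdkn1a, Mdm2, Ccng1, Trp53inp1, Phlda3, Bbc3, Bax and Zmat3, which were taken by their symbols from the 3 count tables and make up 9 of 52636 genes. All 9 passed the filter on low counts, which left 17514 genes in the test. The question is whether mouse embryonic stem (ES) cells that spend 6 h without cohesin show the RNA changes of a DNA damage response.

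Smart-SCRB, a plate-based single-cell transcriptome assay, was run on JM8.N4 mouse ES cells of the C57BL/6N strain in which Rad21 carries a mini auxin-inducible degron and Tir1 is expressed. RAD21 is a subunit of the cohesin ring, and the degron lets the auxin indole-3-acetic acid trigger its breakdown. Control cells received no auxin, treated cells received 500 µM auxin for 6 h, and both grew on gelatin without feeders in serum medium with LIF and the 2i inhibitors PD0325901 and CHIR99021. The controls carry the same degron, and no auxin-exposed line without the degron was analysed here, so an effect of the compound itself and an effect of RAD21 loss cannot be told apart. The procedure was carried out 3 times on 16 plates of 96 wells, with cells of 1 condition on each plate.

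p53 is a transcription factor that is made all the time and destroyed just as fast, mainly through the ubiquitin ligase Mdm2. DNA damage and other stresses interrupt this destruction, and the stabilized protein then drives genes that halt the cell cycle, repair DNA or start apoptosis, along with Mdm2 itself, which closes a negative feedback loop. Control lies mostly at the level of the protein, so Trp53 mRNA is not a readout of p53 activity while its target genes are. Mouse ES cells are known for a high level of p53.

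Promoter sequence is shown for Cdkn1a, Ccng1 and Mdm2, the target genes most of the results turn on, because a p53 site next to the start is what a direct target can have. Each run is the 250 bases before a RefSeq transcript start, 5′ to 3′ on the strand of the gene (GRCm38.p6). Capitals mark a 20-base match to the p53 full-site consensus, a pair of adjoining repeats without spacer, with the C and G of each core required and at most 2 mismatches elsewhere.
Cdkn1a (chr17:29090729-29090978, plus strand): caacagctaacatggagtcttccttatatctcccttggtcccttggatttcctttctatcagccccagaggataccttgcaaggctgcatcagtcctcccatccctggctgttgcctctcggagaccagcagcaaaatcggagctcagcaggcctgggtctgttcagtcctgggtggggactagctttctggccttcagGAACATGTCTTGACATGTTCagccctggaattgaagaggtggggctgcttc
Ccng1 (chr11:40755287-40755536, minus strand): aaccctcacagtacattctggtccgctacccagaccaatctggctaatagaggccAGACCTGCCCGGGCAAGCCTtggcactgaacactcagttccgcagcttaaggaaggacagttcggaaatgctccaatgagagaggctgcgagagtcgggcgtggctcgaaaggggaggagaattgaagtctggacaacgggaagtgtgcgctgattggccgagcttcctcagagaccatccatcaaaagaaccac
Mdm2 (chr10:117710759-117711008, minus strand): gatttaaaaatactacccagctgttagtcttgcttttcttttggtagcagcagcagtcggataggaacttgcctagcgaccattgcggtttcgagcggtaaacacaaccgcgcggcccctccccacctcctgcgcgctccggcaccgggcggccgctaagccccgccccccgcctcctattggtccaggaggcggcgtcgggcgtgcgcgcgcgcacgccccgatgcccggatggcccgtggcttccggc

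The match of Cdkn1a lies 51 bases before the start shown and that of Ccng1 195 bases before its start, each with 1 mismatch. Cdkn1a has another RefSeq start, and the window before it (chr17:29093519-29093768) holds no match, with 7 mismatches in its best stretch. The window of Mdm2 also holds no match, and its best stretch has 9 mismatches. The p53-responsive promoter of Mdm2 is known to lie in its first intron, outside the window. Of the 9 genes, 7 had a window (250 bases before to 50 after the start), and 2 of these 7 held such a match, against 106 of 27025 gene symbols, or 0.392%. With at most 3 mismatches, Bbc3 and Trp53 joined them (4 of 7, against 1.63% of all symbols). Of 37 other known p53 target genes, described below, 29 had a window. Among these 29, 1 held a match with at most 2 mismatches and 4 with at most 3. Trp73, a relative of p53, also held a match with 2 mismatches, and in the 20 bases that follow capitals mark the core of each repeat.
Bbc3 (chr7:16309486-16309505, 97 bases before the start): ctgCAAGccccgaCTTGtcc
Trp53 (chr11:69580284-69580303, 75 bases before the start): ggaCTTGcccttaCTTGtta
Trp73 (chr4:154097220-154097239, 66 bases before the start): gggCAAGctgaggCCTGccc

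Replicate 1 held 168 control and 169 treated cells on 2 plates each, replicate 2 held 371 and 290 on 4 plates each, and replicate 3 held 85 and 84 on 1 plate each. The deposited annotation names the plates of replicates 2 and 3 by treatment but all 4 plates of replicate 1 by whether the cells were RAD21-positive or -negative. These were read as control and auxin, and whether they mark a sort or the treatment is not given in the sources used here. A further 2 plates of replicate 3 with 168 cells were left out, because the deposited annotation and the study's own listing of detected genes place them in opposite conditions. Summed counts ranged from 6064936 to 50448320 unique molecular identifiers (UMIs) per replicate and condition, and median UMIs per cell from 72317 to 187088, highest in the treated cells of replicate 2. Replicate 2 stood apart from the others. More than 2600 detected genes were required of a cell, and this removed 94 of 384 auxin wells there against 13 of 384 control wells, while in replicates 1 and 3 it removed 11.5% to 12.5% of the wells in both conditions. Nanog, a pluripotency factor, was at 58.6 CPM (UMI counts scaled to a common library total) in the controls of replicate 2 against 496 and 525 in those of replicates 1 and 3. Of the 9 ES cell markers all were above 0 in replicate 1, whereas Sox2 was at 0 and Pou5f1 at 5.81 to 12.5 CPM in replicates 2 and 3. The markers Dppa5a (2118 to 6887 CPM) and Tdgf1 (523 to 638 CPM) were high in replicates 2 and 3. Another gene, Rnf8, had 755 control and 1188 auxin UMIs in replicate 1 and 0 in replicates 2 and 3. Whether genes were counted differently between replicates was not tested, so CPM levels of different replicates may not be comparable. Rad21 mRNA was at 20.9, 31.2 and 42.4 CPM in the controls of replicates 1, 2 and 3 and at 19.3, 34.0 and 45.2 CPM after auxin. The transcript does not report on destruction of the protein.

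Over the 3 replicates, none of the 9 genes passed the test for a change with auxin. In edgeR's quasi-likelihood test on summed counts, 0 of 17514 genes passed an adjusted p of 0.05 (0.0% in either direction), and the adjusted p of each of the 9 genes was 0.99999 after Benjamini-Hochberg adjustment. This test ignores which sums share a replicate. It recovered 0% of simulated 2-fold and 0% of simulated 4-fold changes, so its lack of calls cannot show a lack of change. At an unadjusted p under 0.05 the test picked 33 genes (0.0799% of genes higher and 0.108% lower), none of them among the 9, and DESeq2 also called 0 genes (66 unadjusted). With the replicate number as a block, 3 genes passed (1 higher, 0.00571%, and 2 lower, 0.0114%) and again none of the 9. The block fit recovered 92.0% of the simulated 2-fold and 100% of the simulated 4-fold changes. The genes nearest to the threshold in that fit were Mdm2 with a log2 fold change of 0.71 (SE 0.26, edgeR adjusted p = 0.7997) and Trp53 with -0.24 (SE 0.088, edgeR adjusted p = 0.791). The 95% interval for Mdm2 ran from 0.11 to 1.31. The median log2 fold change of the 9 genes was 0.12 in the block fit against 0.0029 for all genes tested.

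The replicates differed in direction, so the genes are given replicate by replicate, beginning with the regulators. Trp53 encodes p53 itself (mm10, chr11:69580359-69591873, plus strand). Its control plates read 360 and 396 CPM in replicate 1, 676, 670.1, 606.5 and 603 in replicate 2, and 944 in replicate 3. Its auxin plates read 324 and 326, then 647, 618, 629 and 641, and 689. Auxin plates were lower than control plates in replicates 1 and 3 and overlapped with them in replicate 2. The mean log2 ratio was -0.23 ± 0.22 (SD, n = 3 replicates), lower in 3 of 3 replicates, with p = 0.25 by exact permutation of signs, two-sided, and that is the smallest p that 3 replicates allow.

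Mdm2 encodes the ligase that marks p53 for destruction (chr10:117688875-117710758, minus strand). Control plates of replicate 2 read 114, 69.8, 116 and 94.8 CPM, and auxin plates read 362, 283, 362 and 287. Every auxin plate was above every control plate, and also above every plate of replicates 1 and 3. In replicate 1 the control plates read 109 and 76.6 CPM and the auxin plates 109.85 and 129, and in replicate 3 the values were 103 and 106. The ratio of auxin to control was 3.27-fold in replicate 2, 1.30-fold in replicate 1 and 1.03-fold in replicate 3. The mean log2 ratio was 0.71 ± 0.88 (SD, n = 3), higher in 3 of 3 replicates (exact permutation of signs, two-sided, p = 0.25). In replicate 3 the log2 ratio was 0.04 without the 2 plates of doubtful condition and -0.0077 with them placed as the study lists them.

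Cdkn1a, Ccng1 and Trp53inp1 act on the cell cycle. Cdkn1a encodes p21, an inhibitor of cyclin-dependent kinases (chr17:29090976-29100727, plus strand), and an antisense gene, AC167363.2, overlaps it. Whether the counting used strand is not given in the sources used here, so reads of the pair may be mixed. Control plates of replicate 2 read 171, 169, 209 and 173 CPM for Cdkn1a, and auxin plates read 387, 306, 312 and 304. The other replicates went the opposite way, with 362 and 321 CPM in control against 257 and 286 in auxin plates of replicate 1, and 264 against 172 in replicate 3. No plates of the 2 conditions overlapped in any replicate, but the direction differed. In replicate 3 that direction depends on the placement of the 2 plates of doubtful condition. The log2 ratio there was -0.62 without them, -0.68 with them placed as annotated and 0.07 with them placed as the study lists them. The control plates of replicate 1 lay in the same range as the auxin plates of replicate 2, and the control plates of replicate 2 lay around the level of the auxin plate of replicate 3. The mean log2 ratio was -0.03 ± 0.78 (SD, n = 3), higher in 1 of 3 replicates (exact permutation of signs, two-sided, p = 1.0).

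Ccng1 encodes cyclin G1, which brings the phosphatase PP2A to Mdm2 (chr11:40748552-40755311, minus strand). Its control plates in replicate 2 read 321, 274, 346 and 345 CPM and its auxin plates 631, 551, 567 and 517, a 1.76-fold ratio without overlap. In replicate 1 the plates overlapped at 397 and 316 against 331 and 409 CPM, and in replicate 3 the values were 298 and 288.5. Trp53inp1, a stress-induced nuclear protein that helps p53 (chr4:11156431-11174379, plus strand), read 25.7, 31.8, 47.9 and 40.1 CPM in control plates of replicate 2 and 88.1, 77.3, 93.5 and 81.6 in auxin plates. That is a 2.34-fold ratio, and again the auxin plates exceeded every plate of the other replicates. In replicate 1 Trp53inp1 was at 32.8 and 35.6 CPM in control against 30.5 and 22.8 in auxin plates, and in replicate 3 at 27.7 against 29.6.

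Phlda3, Bbc3 and Bax belong to the apoptotic arm. Phlda3 competes with the survival kinase Akt for membrane lipids (chr1:135766119-135769136, plus strand). It read 9.35, 9.25, 9.14 and 8.81 CPM in control plates of replicate 2 and 21.9, 19.3, 15.4 and 16.4 in auxin plates, a 1.99-fold ratio without overlap. Replicate 1 was at 21.2 and 22.6 in control and 24.0 and 22.4 in auxin plates, and replicate 3 at 10.6 and 11.2. The auxin plates of replicate 2 were thus at or below the level that both conditions had in replicate 1.

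Bbc3 encodes PUMA, a BH3-only protein that sets off apoptosis at mitochondria (chr7:16308393-16318205, plus strand). Its plates overlapped in replicate 2, at 12.6 to 14.5 CPM in control and 12.6 to 19.2 CPM in auxin plates. Bax encodes the protein that perforates the mitochondrial outer membrane (chr7:45461697-45466898, minus strand), and Gm45808 overlaps it on the same strand, so its counts may be shared. Bax went the opposite way from the others in replicate 2, at 238, 243, 223 and 213 CPM in control plates and 199, 196, 190.4 and 205 in auxin plates, without overlap. In replicates 1 and 3 the log2 ratios of Bax were 0.09 and -0.01. Zmat3, a zinc finger protein that binds RNA (chr3:32334792-32366014, minus strand), was at 29.9 to 36.8 CPM in control and 30.8 to 46.0 CPM in auxin plates of replicate 2. Its ratio was above 1 in 3 of 3 replicates, with a mean log2 ratio of 0.15 ± 0.12 (SD, n = 3, exact permutation of signs, two-sided, p = 0.25). With the 2 plates of doubtful condition placed as the study lists them, its log2 ratio in replicate 3 was -0.036.

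**Figure D1:**
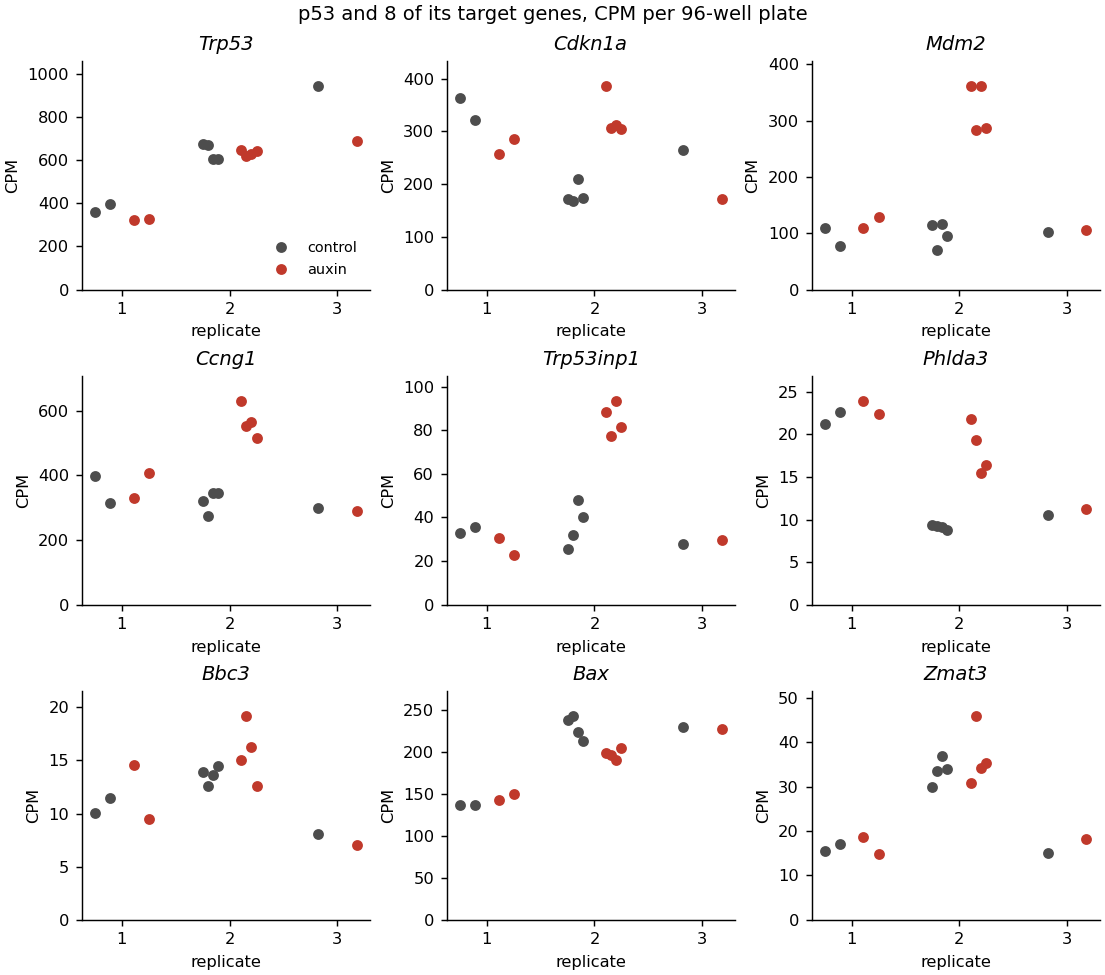
CPM of each of the 9 genes on every plate with a settled condition (vertical axis, starting at 0) by replicate (horizontal axis), with control plates in gray and auxin plates in red. In replicate 2 the 4 auxin plates of Mdm2, Cdkn1a, Ccng1, Trp53inp1 and Phlda3 sit above the 4 control plates, which is not the case in replicate 3 for Cdkn1a, at 264 in control and 172 in auxin.

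By plates, then, 5 of the 9 genes had every auxin plate above every control plate in replicate 2, where 7.47% of all genes tested did, and 1 (Bax) had every auxin plate below, where 5.78% did. In replicate 1, with 2 plates a side, 2 genes (Mdm2 and Bax) were entirely above and 3 (Trp53, Cdkn1a and Trp53inp1) entirely below, against 17.8% and 13.3% of all genes. Across replicates, 3 genes (Mdm2, Phlda3 and Zmat3) were higher in all 3 and 1 (Trp53) lower in all 3, against 15.6% and 13.7% of all genes tested. For the first 3 genes this depends on leaving out the 2 plates of doubtful condition in replicate 3. With them placed as annotated, the log2 ratio there was -0.12 for Phlda3. With them placed as the study lists them, it was -0.0077 for Mdm2 and -0.036 for Zmat3. Trp53 stayed lower under both placements (-0.26 and -0.19).

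A fit with plates as units, added after the data were seen, tested the effect within each replicate. Its p-values measure the spread between plates filled from 1 culture per condition, and not that between cultures. In replicate 2, Mdm2 rose with a log2 fold change of 1.68 (SE 0.15, edgeR adjusted p = 2.65e-05), Trp53inp1 with 1.19 (SE 0.17, edgeR adjusted p = 0.00104) and Phlda3 with 0.96 (SE 0.17, edgeR adjusted p = 0.00671). Cdkn1a rose by 0.82 on the log2 scale (SE 0.094, edgeR adjusted p = 0.000174) and Ccng1 by 0.78 (SE 0.095, edgeR adjusted p = 0.000299). These are 5 of 9 genes, where the same fit called 1.82% of 15640 genes higher and 1.82% lower. Bax had -0.26 and did not pass (edgeR adjusted p = 0.0823), nor did Trp53, Bbc3 or Zmat3. The 95% interval for Trp53 ran from -0.20 to 0.10.

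In the same fit none of the 9 genes passed in replicate 1, where the fit called 0.0192% of genes higher and 0.121% lower, or in replicate 3, with 0.0% and 0.00639%. There 2 plates and 1 plate a side gave less power. How often the fit would recover a 2-fold change in replicates 1 and 3 was not tested. For Mdm2 the intervals there ran from -0.13 to 0.78 and from -0.56 to 0.73, both ending below the lower bound of 1.36 in replicate 2. Cdkn1a had a log2 fold change of -0.37 in replicate 1 (edgeR adjusted p = 0.270) and of -0.58 in replicate 3 (edgeR adjusted p = 0.784).

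The difference between the replicates was tested in the same fit on plates, and this contrast too was added after the data were seen. Its p-values again measure the spread between plates and not that between cultures. The difference was the auxin effect in replicate 2 minus the mean effect in replicates 1 and 3. It passed for 4 of the 9 genes, all positive, where the test called 0.256% of genes positive and 0.153% negative. Cdkn1a differed by 1.30 on the log2 scale (SE 0.15, edgeR adjusted p = 0.00104), Mdm2 by 1.48 (SE 0.24, edgeR adjusted p = 0.0114), Ccng1 by 0.78 (SE 0.15, edgeR adjusted p = 0.0389) and Trp53inp1 by 1.33 (SE 0.27, edgeR adjusted p = 0.0476). Phlda3 differed by 0.87 without passing (edgeR adjusted p = 0.218). Against replicate 1 alone 3 of the 4 passed (not Ccng1), and against replicate 3 alone, with its single plate a side, Cdkn1a did (1.40, edgeR adjusted p = 0.0415), and Mdm2 at 1.597 did not (edgeR adjusted p = 0.162). On leaving out any 1 plate of replicate 2, or replicate 1 or 3, only 1 to 3 of the 9 genes passed, with 4 to 86 genes called in all. Cdkn1a passed in every one of these fits (1.20 to 1.40) and Mdm2 in all but the one against replicate 3 alone. Ccng1 passed only without auxin plate 4, and Trp53inp1 only without control plate 3 or without replicate 3.

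Marker levels and the share of mitochondrial transcripts were set beside the rise in replicate 2. The ES cell markers summed to 4617 CPM in its controls and 2988 in its treated cells, with 0 higher and 5 lower of 8 tested in the plate fit, against 10071 and 9412 in replicate 1 and 7951 and 8339 in replicate 3. Fibroblast markers summed to 14.3 CPM in control and 27.3 in treated cells of replicate 2, mostly from Dcn at 10.6 and 22.6, against 2.66 and 1.87 in replicate 1 and 12.5 and 7.18 in replicate 3. Primitive endoderm markers were at 5.73 and 5.77 CPM in replicate 2, against 5.105 and 7.54 in replicate 1 and 8.41 and 15.9 in replicate 3. Mitochondrial transcripts made up 2.43% of counts in control and 2.08% in treated cells of replicate 2. The part of these measures in the rise of the p53 targets was not tested. The rise was as large with every well kept (Mdm2 1.68, Cdkn1a 0.81, Ccng1 0.77, Trp53inp1 1.20 and Phlda3 0.95 on the log2 scale, all 5 called), and with each cell thinned to 20000 UMIs it held for 4 genes, Phlda3 falling short (0.96, edgeR adjusted p = 0.0756).

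Single cells show how the rise was spread. Cells were thinned to 20000 UMIs so that depth does not set the counts, and such a share counts cells with at least 1 UMI of a gene, not cells that express it. In replicate 2, Mdm2 was detected in 56.5% of 363 control cells and 77.6% of 277 treated cells, and its median went from 1 to 3 UMIs. For Trp53inp1 the shares were 35.5% and 61.0%, for Cdkn1a 68.3% and 85.2%, for Phlda3 17.4% and 32.1%, and for Ccng1 91.5% and 97.5%. All 5 shares were higher after auxin. Without thinning the shares of Mdm2 were 81.4% and 89.0%.

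In replicate 1 the same shares after thinning were 61.3% and 72.8% for Mdm2 but 89.9% and 82.8% for Cdkn1a and 33.3% and 23.7% for Trp53inp1, and in replicate 3 they were 67.9% and 67.1% for Mdm2 and 92.9% and 84.8% for Cdkn1a. The share for Mdm2 was thus higher after auxin in replicates 1 and 2, and that for Cdkn1a lower in replicates 1 and 3. Over replicates the mean difference was 10.6 percentage points ± 10.98 for Mdm2 and 0.60 ± 14.1 for Cdkn1a (SD, n = 3, exact permutation of signs, two-sided, p = 0.5 and p = 1.0). Zmat3, Ccng1 and Bbc3 were detected in a larger share of treated cells in 3 of 3 replicates, by 5.04 ± 1.44, 4.10 ± 2.12 and 1.51 ± 0.61 points (SD, n = 3, exact permutation of signs, two-sided, p = 0.25 each).

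The rise in replicate 2 came with a long upper tail. Cells above the 95th percentile of the controls were 26.0% of treated cells for Mdm2 (72 of 277), 22.0% for Ccng1 (61), 36 cells for Trp53inp1, 12.3% for Cdkn1a (34) and 9.03% for Phlda3 (25), where the controls themselves gave between 3.31% and 4.96%. For Mdm2 the upper quartile of the treated cells was 9 UMIs against 3 in controls, while the lower quartile was 1 against 0. In replicates 1 and 3 the share above that percentile was 4.73% and 2.53% for Mdm2 and 2.96% and 0.0% for Cdkn1a.

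**Figure D2:**
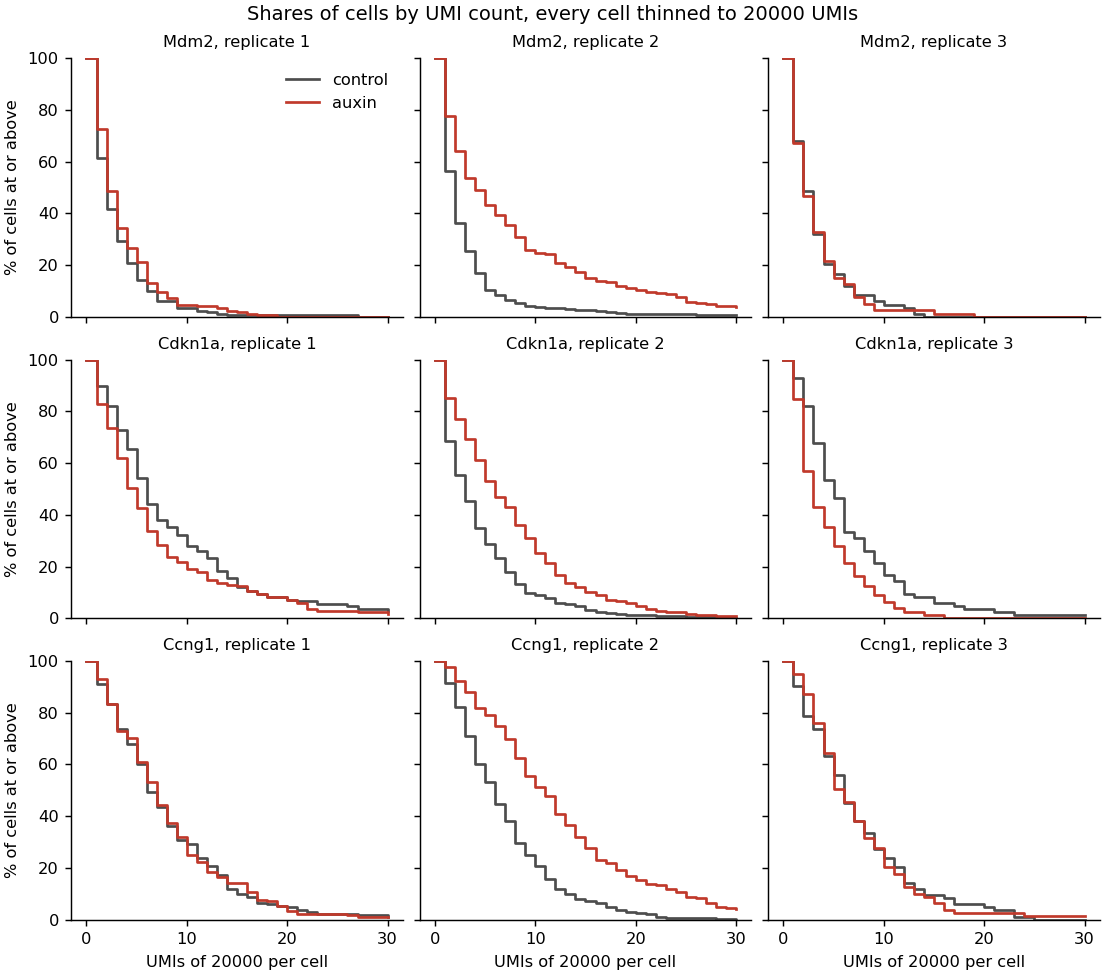
Share of cells (vertical axis, percent) with at least the number of UMIs on the horizontal axis, for Mdm2, Cdkn1a and Ccng1 in each replicate after thinning every cell to 20000 UMIs, with controls in gray and auxin in red. In replicate 2 the auxin curves lie above the controls for all 3 genes, and for Mdm2 they extend well past the control 95th percentile of 8 UMIs, whereas in replicates 1 and 3 the curves nearly coincide for Ccng1 and the auxin curve is lower for Cdkn1a over most of the range. For Mdm2 the auxin curve of replicate 1 starts higher (72.8% against 61.3% at 1 UMI) and the curves of replicate 3 nearly coincide.

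Shares of cells called G1 and G2/M, given without a test, went the opposite way in replicate 2 from replicates 1 and 3. The cyclone classifier called 6.47% of control and 21.4% of treated cells of replicate 2 as G1, against 36.9% and 16.6% in replicate 1 and 7.06% and 5.95% in replicate 3. Shares called G2/M went from 62.8% to 42.8% in replicate 2, from 37.5% to 50.9% in replicate 1 and from 49.4% to 60.7% in replicate 3. Shares called S went up in replicates 1 and 2, from 25.6% to 32.5% and from 30.7% to 35.9%, and went from 43.5% to 33.3% in replicate 3. Cdkn1a, Ccng1 and Trp53 are among the 667 marker genes of the classifier, so phase and the levels of these 3 genes were not measured independently. Mdm2 and the other 5 are not among them, but Mdm2 varied across cells with Cdkn1a and Ccng1 (mean Spearman correlation 0.39 with each). How far the phase calls thereby select cells by their Mdm2 level was not tested. The part of the phases in the rise was not tested beyond the values within each phase that follow.

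Within each phase the 5 genes remained higher after auxin in replicate 2. Mdm2 was 2.24-fold higher in cells called G1, 3.70-fold in S and 2.17-fold in G2/M. Cdkn1a was 1.33-, 2.06- and 1.63-fold higher, and Trp53inp1 2.51-, 1.86- and 2.05-fold. Among G2/M cells alone the plate fit of replicate 2 called Mdm2 (1.08, edgeR adjusted p = 0.0300), Cdkn1a (0.69, edgeR adjusted p = 0.0106) and Trp53inp1 (1.02, edgeR adjusted p = 0.0373), and among S cells alone it called Mdm2, Cdkn1a and Ccng1. The totals of genes called in each of these fits are given with the processing alternatives below.

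Cells called G1 were the ones with the most Mdm2 in every replicate and condition. Mdm2 in G1 cells was at 103, 284 and 173 CPM in the controls of replicates 1, 2 and 3 and at 237, 636 and 494 CPM after auxin. Control and treated G1 cells numbered 62 and 28 in replicate 1, 24 and 62 in replicate 2, but 6 and 5 in replicate 3, where 62 and 127 UMIs carry the values. In G1 cells Mdm2 was thus more than 2-fold higher after auxin in all 3 replicates, and Cdkn1a was higher too, at 1.88-, 1.33- and 2.50-fold. Outside G1, Mdm2 in S and G2/M cells of replicates 1 and 3 had ratios between 0.873 and 1.23, and Cdkn1a had ratios between 0.532 and 0.878. These values by phase are a description with 1 value per replicate and condition and no test.

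**Figure D3:**
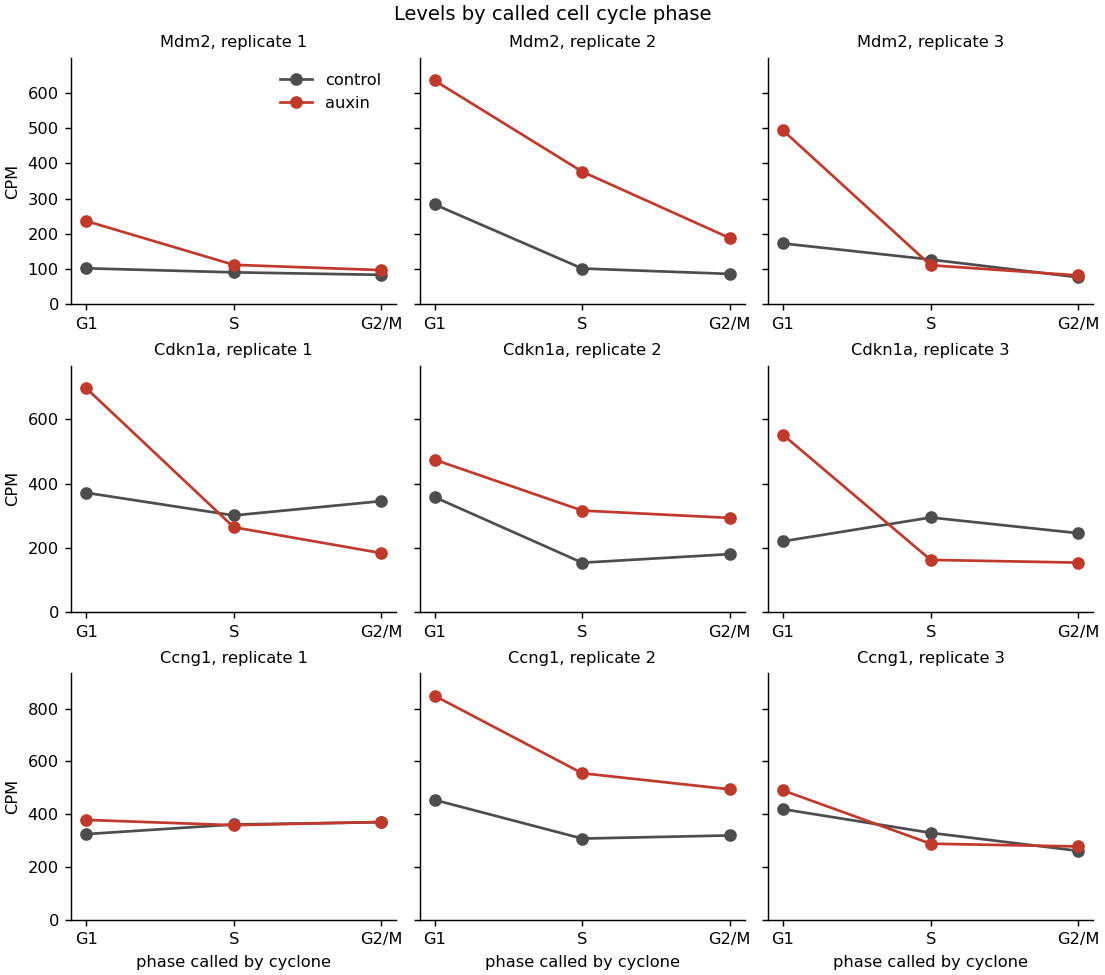
CPM of Mdm2, Cdkn1a and Ccng1 (vertical axis) in cells called G1, S or G2/M by cyclone (horizontal axis) for each replicate, with control in gray and auxin in red. Mdm2 is highest in G1 cells throughout, and in replicate 2 the auxin line is above the control line in all 3 phases for all 3 genes.

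Of 37 other known p53 target genes, 36 were tested in the sums, where Fas failed the filter on low counts, and all 37 in the plate fit. In replicate 2, 7 rose and 2 fell, where the same fit called 1.82% of 15640 genes higher and 1.82% lower. Those shares also stand beside the counts in replicate 2 for the single lists that follow. The median log2 fold change of the 37 genes was 0.39 against 0.0053 for all genes tested. In replicates 1 and 3 the fit called none of them. Over all replicates edgeR called none in the sums either, with or without the block, with 1 gene (Pml) at an unadjusted p under 0.05 without it.

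Among 10 arrest genes, 3 rose in replicate 2. Plk2, a polo-like kinase, had 1.94 (SE 0.13, edgeR adjusted p = 2.92e-06), from 55.0 to 216 CPM. Btg2, an antiproliferative cofactor, rose by 1.14 (SE 0.15, edgeR adjusted p = 5.00e-04) from 38.8 to 87.6 CPM, and Rprm, which holds cells in G2, by 1.47 (SE 0.34, edgeR adjusted p = 0.0264) from 3.22 to 9.10 CPM. Btg2 was at 87.1 CPM in control and 45.5 in treated cells of replicate 1 and at 39.4 and 24.1 in replicate 3. The difference between replicate 2 and the others passed for Btg2 (1.96, SE 0.24, edgeR adjusted p = 0.00154) and Plk2 (1.95, SE 0.21, edgeR adjusted p = 9.96e-04). Gadd45a, another arrest gene, did not pass in replicate 2, at 42.3 CPM in control and 33.1 in treated cells.

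Among 10 apoptosis genes tested in the plate fit, 3 rose in replicate 2. They were Apaf1, the scaffold of the apoptosome (1.20, edgeR adjusted p = 0.00555), Tnfrsf10b, a death receptor (1.20, edgeR adjusted p = 0.0188), and Pidd1, a death domain adaptor (1.03, edgeR adjusted p = 0.0105). Pmaip1, which encodes the BH3-only protein NOXA, was at 178 CPM in control and 262 in treated cells of replicate 2 without passing (edgeR adjusted p = 0.0573), but its difference from replicates 1 and 3 passed (1.32, SE 0.25, edgeR adjusted p = 0.0385). It read 87.0 and 58.3 CPM in replicate 1 and 26.5 and 13.3 in replicate 3. Fas, another death receptor, had 48 UMIs in the controls and 370 in the treated cells of replicate 2, and 1 to 8 UMIs per condition in replicates 1 and 3. Its log2 fold change in replicate 2 was 2.85 (SE 0.81, edgeR adjusted p = 0.0672), which did not pass, nor did its difference between replicates (1.07, edgeR adjusted p = 0.944).

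Of 13 genes of repair and metabolism, 1 rose and 1 fell in replicate 2. Ercc5, a nuclease of excision repair, had 0.64 (edgeR adjusted p = 0.0247), and Tigar, a regulator of glycolysis, had -0.65 (edgeR adjusted p = 0.00804). Tigar was at 75.2 CPM in control and 49.5 in treated cells of replicate 2 but at 127 and 164 in replicate 1 and 189.8 and 227 in replicate 3. For Tigar the difference between replicates passed (-0.96, SE 0.19, edgeR adjusted p = 0.0395). Among 4 feedback genes Pml, which forms nuclear bodies, fell in replicate 2 (-0.83, edgeR adjusted p = 0.00125). Its log2 ratios were -0.55, -0.79 and -0.41 in replicates 1, 2 and 3, and it was the only gene of the lists that DESeq2 with the replicate block called (-0.62, adjusted p = 0.0228, with 0.0799% of genes called higher and 0.24% lower). Ppm1d, the phosphatase that switches p53 signaling off, had log2 ratios of 0.24, 0.45 and 0.27.

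Of 20 tested genes that sense damage, pass it on to p53 or control p53, 0 rose and 1 fell in replicate 2, with 2 and 4 at an unadjusted p under 0.05 (9.07% and 7.81% of all genes) and a median log2 fold change of -0.06. The gene that fell was H2ax, a histone variant marked at DNA breaks, with -0.45 (edgeR adjusted p = 0.0419), from 516 to 389 CPM. Chek1 and Chek2, the checkpoint kinases, were at 42.9 and 54.3 CPM in control against 46.3 and 61.8 in treated cells of replicate 2, and Atm, the kinase that responds to breaks, was at 32.6 against 39.1. Most of these proteins are controlled by modification rather than by transcript level. Brca1 had log2 ratios of -0.38, -0.41 and -0.55, and Rad50 of 0.61, 0.31 and 0.23, in the same direction in 3 of 3 replicates without passing in the block fit (edgeR adjusted p = 0.697 and 0.771).

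Trp73, a p53 relative with a match to the p53 consensus before its start, rose in replicate 2 (1.22, SE 0.23, edgeR adjusted p = 0.0102). Binding of p53 to that match was not measured. Its controls were at 2.00, 11.9 and 1.81 CPM in replicates 1, 2 and 3 and its treated cells at 4.63, 28.5 and 2.54 CPM, higher in 3 of 3 replicates. Genes of G2 and mitosis that p21 is known to lower did not pass in either direction in replicate 2. Of these 12, 5 had ratios above 1 in replicate 2 and 11 each in replicates 1 and 3, and Aurka, a mitotic kinase, differed between replicate 2 and the others (-0.84, SE 0.16, edgeR adjusted p = 0.0367).

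**Figure D4:**
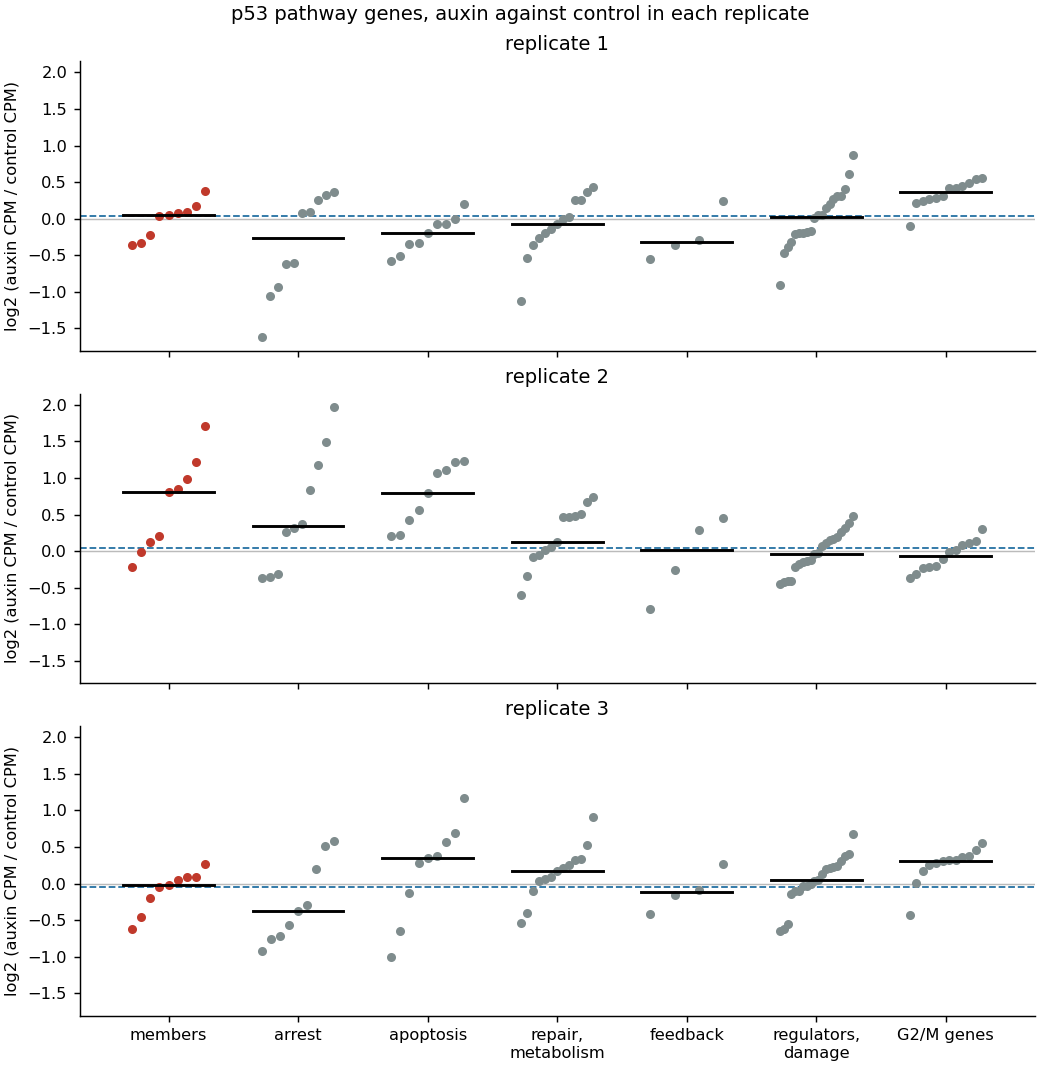
Log2 ratio of auxin to control CPM (vertical axis) in each replicate for the 9 genes in red and, in gray, the tested genes of the other lists (horizontal axis), with a black bar at the median of each list and a dashed line at the median of all genes tested. In replicate 2 the medians of the 9 genes (0.81) and of the apoptosis genes (0.79) lie above the dashed line, and in replicate 1 the medians of the arrest and apoptosis genes (-0.26 and -0.20) lie below it.

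Across single cells the target genes varied together, in control and in treated cells alike. Spearman correlations were taken over the cells of each replicate and condition, on counts divided by the UMI total of the cell. In the controls of replicates 1, 2 and 3 the median over the 36 pairs was 0.171, 0.1803 and 0.122 (168, 371 and 85 cells). After auxin it was 0.183, 0.195 and 0.167 (169, 290 and 84 cells). Over all pairs of 9517 genes that averaged 1 count per cell or more the medians were 0.0032 to 0.0507, and the 95th percentiles 0.146 to 0.209. That percentile was exceeded by 22, 20 and 12 of the 36 pairs in the controls of replicates 1, 2 and 3 and by 24, 20 and 13 pairs after auxin. With each cell thinned to 20000 UMIs the medians were lower, at 0.081, 0.0924 and 0.0682 in the controls and 0.0709, 0.0913 and 0.166 after auxin, and 12, 17 and 8 pairs in the controls and 14, 17 and 16 after auxin exceeded the 95th percentile of all pairs (0.113 to 0.192). The cells of a set share a culture, a few plates and their depth, and the values are a description.

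Mdm2 and Ccng1 had a mean correlation of 0.42 in control and 0.36 in treated cells, and Cdkn1a and Mdm2 of 0.32 and 0.46. The pairs of Trp53 were among the weakest, with means over the 3 replicates from -0.03 to 0.12. Trp53 ranked 4328 of 9516 genes by its mean correlation with Cdkn1a, 1836 with Mdm2 and 944 with Ccng1. The pair on chromosome 11, Trp53 and Ccng1, lies 28.8 Mb apart and the pair on chromosome 7, Bbc3 and Bax, 29.2 Mb. Both were among the weaker pairs, with Bbc3 and Bax at 0.15 in control and 0.09 in treated cells.

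**Figure D5:**
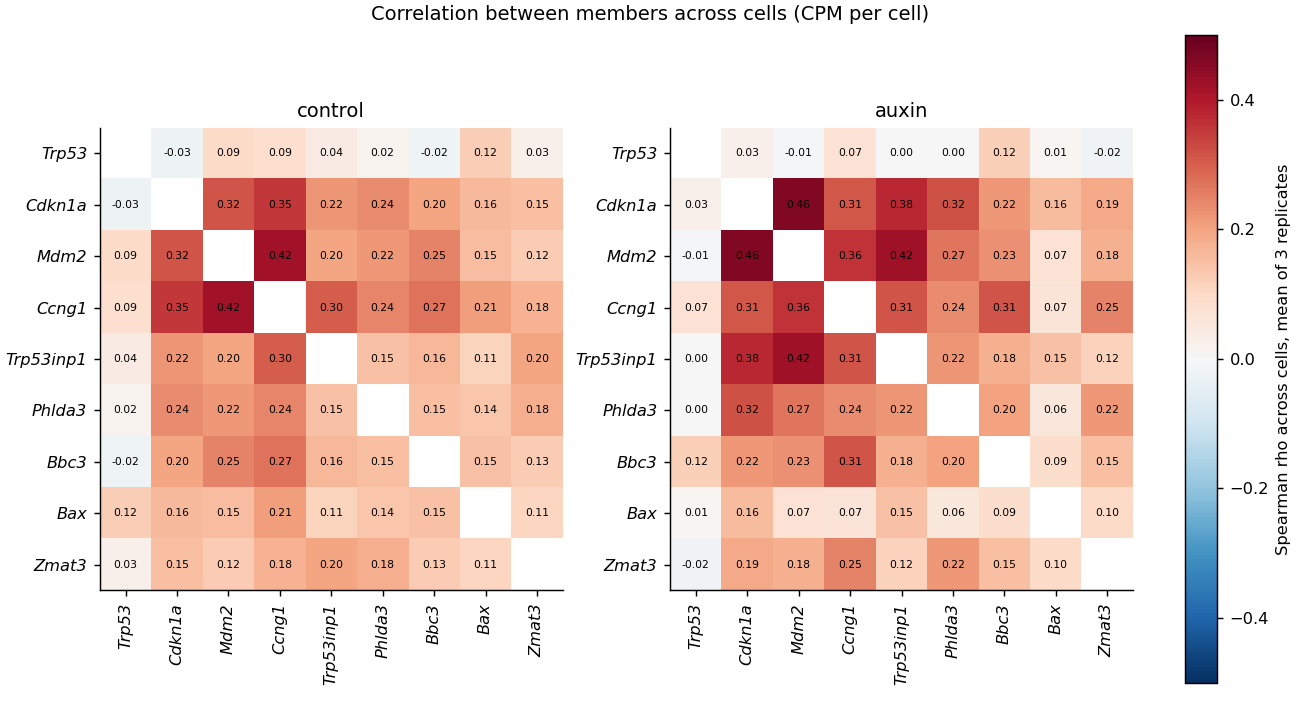
Spearman correlation across cells for each pair of the 9 genes, as the mean of the 3 replicates, in control (left) and treated cells (right), with color from -0.5 (blue) to 0.5 (red). The pairs among Cdkn1a, Mdm2 and Ccng1 are between 0.31 and 0.46 in both conditions, and the row of Trp53 is between -0.03 and 0.12.

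By mean correlation over the 6 sets, the 5 nearest to Cdkn1a of 9516 genes were Plk2 (0.417), Mdm2 (0.390), Btg2 (0.357), Ccng1 (0.332) and Cald1 (0.318), the last of which encodes the actin-binding protein caldesmon. Nearest to Mdm2 were Ccng1 (0.390), Cdkn1a (0.390), Plk2 (0.390), Btg2 (0.377) and Ddit4l (0.344), an inhibitor of mTOR signaling. Nearest to Ccng1 were Plk2 (0.408), 1700007K13Rik (0.395), Mdm2 (0.390), Ddit4l (0.374) and Btg2 (0.365). The lowest of the 6 values for Mdm2 with Ccng1 was 0.291 and for Cdkn1a with Mdm2 0.283, so both pairs were positive in control and treated cells of every replicate.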

How the data were processed

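Smart-SCRB was run on RAD21-AID mouse ES cells in 3 replicates, each with control and auxin plates. Per the study's methods, adapter sequence was trimmed, each read was assigned to its well and molecule, and mm10 was the alignment genome. The authors then deposited the UMI count of every gene in every well, without normalization or a filter on cells. The aligner, counter and annotation are not given in the sources used here. The authors also deposited the percent of counts from ERCC spike-ins per well and the saturation per plate, a fraction of 0.283 to 0.579. The 92 spike-ins and 11 other sequences that are not genes (3.65% of counts) were left out, and the 1536 wells had 1536 distinct names. The condition came from the deposited annotation per plate, where RAD21-positive and -negative, the terms used for replicate 1, were read as control and auxin. Where this conflicted with the study's listing (2 plates of replicate 3), the plates entered as alternatives.

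Cells with more than 2600 detected genes were summed per replicate and condition, filtered with filterByExpr and compared by the quasi-likelihood test of edgeR 4.0.16 under R 4.3.3 (TMM scaling), calling genes at a Benjamini-Hochberg adjusted p under 0.05, with DESeq2 1.42.0 as an alternative. The study calls its replicates biological, and plates of 1 replicate and condition are repeats of 1 sample. The replicate numbers pair the samples, since the study repeated its entire procedure and control and auxin sums of 1 number deviated together from the means of their groups, with correlations across genes of 0.866, 0.822 and 0.656. The fit with plates as 1 group per replicate and condition assumes that the single plates of replicate 3 vary like the others. Fits were tested on simulated data with a fixed dispersion and with changes only in genes above a floor on mean counts. For the sums, the change was the same in every replicate. Of 200 genes changed 2-fold, the sums recovered 0% without and 92.0% with the block (17075 genes). With the change placed in replicate 2 only, plates recovered 98.5% in replicate 2 and 61.5% of the difference (15499 genes). Recovery in replicates 1 and 3 was not tested. Phases came from cyclone (scran 1.30.0) and other values from Python 3.11.15 with seed 1. Gene positions are from GENCODE vM21 (99.6% of identifiers matched), promoters from RefSeq (GRCm38.p6). A wider search around each start could not be made without a genome, so windows of 250 bases before to 50 after the start were used.

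The 9 genes and the other lists were chosen with earlier results of these data known. Named genes are the 9, the list genes past the threshold, and the 5 most correlated with Cdkn1a, Mdm2 and Ccng1. Ppm1d, Brca1 and Rad50 were named as list genes that moved 1 way in all replicates. Other list genes that did so, such as Trp53bp1 and Cdc20, were not described. Gadd45a, Chek1, Chek2, Atm, Nanog, Dcn and Pmaip1 were added as known members of their lists, after their values were seen.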

Additional observations from a re-analysis of the deposited data

Results flagged for a closer look

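The auxin effect in replicate 2 differed from the mean effect in replicates 1 and 3 by a test of the difference itself for 9 genes of the p53 pathway (edgeR's quasi-likelihood test on plates with Benjamini-Hochberg adjustment). The differences were 1.30 for Cdkn1a, 1.48 for Mdm2, 0.78 for Ccng1, 1.33 for Trp53inp1, 1.96 for Btg2, 1.95 for Plk2 and 1.32 for Pmaip1 on the log2 scale, and -0.96 for Tigar and -0.84 for Aurka. On leaving out any 1 plate of replicate 2, or replicate 1 or 3, 1 to 3 of the first 4 genes and 0 to 5 of the other list genes still passed. The replicate itself, its cell cycle makeup and its marker levels change together between these groups of plates, and their parts were not tested. The test of the difference measures the spread between plates and not between cultures, and it was added after the data were seen.

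Cdkn1a had 1 plate far from the others of its group in both conditions of replicate 2. The highest control plate, plate 3, was at 209 CPM, where the other controls were between 169 and 173, and the highest auxin plate, plate 1, was at 387 CPM, where the others were between 304 and 312. Among 18 groups of 4 plates examined these were the 2 such cases, and chance gives about 1 in 20 groups. On leaving out each of these plates in turn, Cdkn1a still passed in replicate 2.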

How the results depend on the processing

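None of the 9 genes was called over the 3 replicates under any alternative. In edgeR the replicate block changed no call among them or the lists, whereas DESeq2 with the block called 1 list gene, Pml (adjusted p = 0.0228). The genes called of all tested went from 0 to 3 with the block, 56 in DESeq2 with the block, 3 with the block and replicate 3 as annotated, and 0 to 32 on leaving out a replicate. Alternatives on plates were added after the data were seen.

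In replicate 2, 3 of the 9 genes passed in G2/M cells and 3 in S cells, with 85 and 178 genes in all (258 to 388 without 1 plate) and 2 and 4 list genes (7 to 12 without 1 plate). For the difference between replicates, 1 gene passed in G2/M cells and 2 in S cells, and 1 to 3 on leaving out a plate or replicate, where Ccng1 or Trp53inp1 was often lost. Genes called for the difference were 40 after thinning, 8 in G2/M cells, 14 in S cells, 235 with replicate 3 as annotated and 4 to 86 on leaving out, and list genes 3, 1, 1, 9 and 0 to 5, or 2 with replicate 3 as listed. The causes were not tested, beyond fewer cells in 1 phase.

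The fold change over replicates changed sign for Cdkn1a with replicate 3 as listed (0.077, and 0.17 with the block) and on leaving out a replicate (-0.48 to 0.23, with -0.45 and 0.14 between), as did Trp53inp1 (-0.18, or -0.15 with the block, to 0.84) and Bax (-0.11 to 0.035, or 0.033 without the block). These follow from replicates that go opposite ways. In G2/M cells it turned for Bbc3 (-0.11) and Zmat3 (-0.16), and on plates of replicate 2 for Bbc3 (-0.16) and Zmat3 (-0.18, and -0.036 to 0.16 without 1 plate). Mean log2 ratios turned for Cdkn1a (0.20 as listed, -0.48 to 0.26), Trp53inp1 (-0.029 in G2/M cells, -0.13 to 0.66), Bbc3 (-0.18 in G2/M cells, -0.012 to 0.19), Bax (-0.11 to 0.040) and Zmat3 (-0.12 in G2/M cells). Differences in shares turned for Cdkn1a (-7.54 to 4.92 points), Trp53inp1 (-2.47 to 15.1), Phlda3 (-0.69 to 7.39) and, without thinning, Bbc3 (-0.013). The mean of the median correlations was 0.270 on raw counts and 0.0950 after thinning, against 0.170. With at most 3 mismatches, 4 genes held a p53 match against 2. With 3 replicates, no sign-flip p could fall below 0.25.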

Other observations

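The 2 plates of replicate 3 whose condition could not be settled had the following levels. The plate annotated as control read 105 CPM for Mdm2, 260.03 for Cdkn1a, 276 for Ccng1 and 768 for Trp53, and the plate annotated as auxin read 109 CPM for Mdm2, 155 for Cdkn1a, 263 for Ccng1 and 724 for Trp53. The settled control and auxin plates of the replicate read 264 and 172 CPM for Cdkn1a.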
